A study of Homo sapiens with 12 samples.

Results

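Cells hold a set of abundant short noncoding RNAs that work as ribonucleoproteins. Measured here were 112 genes of that kind, out of 15074 genes in the tables, in HCT116, an established human colorectal carcinoma cell line. Members were taken by gene type: every measured gene that the GENCODE 29 annotation calls snoRNA (58 genes), scaRNA (7), snRNA (30) or misc_RNA (17), leaving out 6 such genes on chromosome 7, on which RNY1 was kept. By symbol they comprised 26 box C/D and 28 box H/ACA small nucleolar RNAs, 8 small Cajal body RNAs, 29 genes or copies of the major spliceosomal RNAs, the minor spliceosomal RNA RNU4ATAC, the Y RNA RNY1, 7 genes of the 7SL family, 7 copies of the 7SK RNA, the vault RNA VTRNA1-3 and 4 genes with an Rfam family name or only an identifier. RNY3 was not among the measured genes.

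The design compared 4 lines of 3 libraries each, all harvested 48 h after seeding at 500000 cells per well. FH-5xA and FH-WT are AGO2 knockout cells that carry a tagged AGO2, in the 5xA mutant or the wild-type form (genotypes FH-AGO2_5xA and FH-AGO2_WT), the knockout has the genotype AGO2_KO, and parental cells are the starting line. AGO2 is an Argonaute, the protein that carries microRNAs to their target mRNAs, and 5xA is a form in which a cluster of phosphorylation sites near its C terminus is replaced by alanine. All 3 engineered lines descend from the knockout, a single line, so a change they share may come from loss of AGO2 or from anything else that sets this line apart, and these cannot be told apart. The sources used here do not name the promoter of the tagged AGO2. AGO2 transcripts stood at -0.35 ± 0.07 on the log2 scale in knockout against parental cells in the authors' deposited table, and at 0.73 and 0.75 in FH-5xA and FH-WT against the knockout. Of the marker lists, 6 of 6 epithelial genes were measured, against 0 of 5 for blood, 0 of 3 for endothelium and 1 of 4 for fibroblasts (COL1A1).

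Small nucleolar RNAs guide the chemical modification of ribosomal RNA: box C/D RNAs direct 2′-O-methylation with the methylase fibrillarin, and box H/ACA RNAs direct pseudouridylation with dyskerin. Small Cajal body RNAs do the same for the spliceosomal RNAs, which in turn recognise splice sites and form the catalytic core of the spliceosome. Y RNAs bind the protein Ro60, 7SL is the RNA of the signal recognition particle, and 7SK holds the elongation factor P-TEFb inactive. Most human small nucleolar RNAs are cut out of introns of a host gene, whereas most spliceosomal RNAs, Y RNAs, 7SL and 7SK have promoters of their own.

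Sequences of RNAs whose levels differed between the lines are shown first, from the GENCODE 29 transcript set on GRCh38, 5′ to 3′ and written as DNA. RNY1 is encoded at chr7:148987136-148987248 on the minus strand, and its capitals mark the first 8 bases of the terminal stem and the run of T at the 3′ end that is typical of RNA polymerase III transcripts.
RNY1: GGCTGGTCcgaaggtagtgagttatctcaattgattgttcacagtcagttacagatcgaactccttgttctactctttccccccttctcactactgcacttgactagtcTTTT
RNU4-2 (chr12:120291763-120291903, minus strand) encodes U4, which pairs with U6 in the major spliceosome, and RNU4ATAC (chr2:121530881-121531007, plus strand) encodes its counterpart in the minor spliceosome; capitals mark the Sm protein binding site ATTTTTG.
RNU4-2: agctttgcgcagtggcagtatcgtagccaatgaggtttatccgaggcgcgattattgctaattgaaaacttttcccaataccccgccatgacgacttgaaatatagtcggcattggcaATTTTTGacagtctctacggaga
RNU4ATAC: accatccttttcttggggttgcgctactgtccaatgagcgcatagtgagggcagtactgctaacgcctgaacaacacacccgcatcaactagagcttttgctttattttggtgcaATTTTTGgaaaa
SNORD11B (chr2:202291332-202291421, plus strand) and SNORD11 (chr2:202293051-202293134, plus strand) are box C/D RNAs from introns of one host gene, NOP58, and are shown because SNORD11B was called in FH-WT against knockout and SNORD11 was not; the difference between them was not tested. Capitals mark the C box TGATGA and the D box CTGA.
SNORD11B: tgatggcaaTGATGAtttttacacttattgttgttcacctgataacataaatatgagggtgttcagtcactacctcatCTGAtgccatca
SNORD11: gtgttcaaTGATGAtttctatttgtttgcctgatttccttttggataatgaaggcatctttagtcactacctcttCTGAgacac
SNORA53 (chr12:98599635-98599883, plus strand), an H/ACA RNA, had the lowest FDR of all members in both AGO2 add-back lines against the knockout, and SNORD17 (chr20:17962710-17962946, minus strand), a long box C/D RNA, changed with it. Capitals mark the ACA box near the 3′ end of SNORA53 and the C and D boxes of SNORD17.
SNORA53: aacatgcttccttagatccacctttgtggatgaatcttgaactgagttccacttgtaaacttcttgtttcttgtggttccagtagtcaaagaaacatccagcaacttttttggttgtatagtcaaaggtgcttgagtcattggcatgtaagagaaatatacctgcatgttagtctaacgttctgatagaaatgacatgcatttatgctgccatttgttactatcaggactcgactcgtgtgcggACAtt
SNORD17: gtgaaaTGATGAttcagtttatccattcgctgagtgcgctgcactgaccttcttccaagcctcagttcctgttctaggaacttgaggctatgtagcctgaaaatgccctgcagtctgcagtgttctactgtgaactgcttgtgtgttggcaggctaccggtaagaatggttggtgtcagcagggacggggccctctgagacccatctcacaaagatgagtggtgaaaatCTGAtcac
On the printed strand, TGATGA was found in 21 of the 26 box C/D members, CTGA in the last 20 bases of 23 of them, and ACA in the last 6 bases of 23 of the 28 H/ACA members. Among the 5104 annotated genes of the same 4 types, these strings occurred in 10.3%, 13.0% and 9.27%.

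The members were mostly low in these libraries, which were made from rRNA-depleted total RNA and not selected for short RNAs. Mean expression in the authors' deposited tables ranged from -0.21 to 11.55 log2 CPM (counts scaled to the size of the library), with a median of 1.40 against 4.45 over all genes, and 77 members were below 2. CPM is not scaled to RNA length, so levels are compared between lines and not between RNAs. The deposited tables give fold changes and not values per library, so the level of each line is a fitted CPM: the deposited mean spread over the 4 lines by the deposited fold changes, with no spread per library. Errors given with ± are standard errors of a log2 fold change, taken from the deposited likelihood ratio, with 3 libraries a group, and a gene is called at a false discovery rate (FDR) under 0.05 over all genes of the table. Several members belong to families of near-identical copies: 18 have another annotated copy at 95% identity or more over 90% of their length, and the sources used here do not state how reads matching several copies were counted.

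More small noncoding RNAs were lower than higher in knockout cells against parental cells. In the authors' deposited table for these lines, 35 of the 112 members were lower (31.2%) and 3 were higher (2.68%), where 21.2% and 23.2% of all genes were called lower and higher. The median log2 fold change of the members was -0.32, against -0.01 over all genes in the authors' deposited table, and 93 of 112 members were below 0. Fitted levels summed over the members without RN7SL2 and RN7SL3 were 1395 CPM in knockout cells and 1754 CPM in parental cells. With those 7SL genes included the sums were 7489 CPM in knockout and 6696 CPM in parental cells. Among the classes of 7 or more genes the major spliceosomal RNAs had the lowest median.

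**Figure D1:**
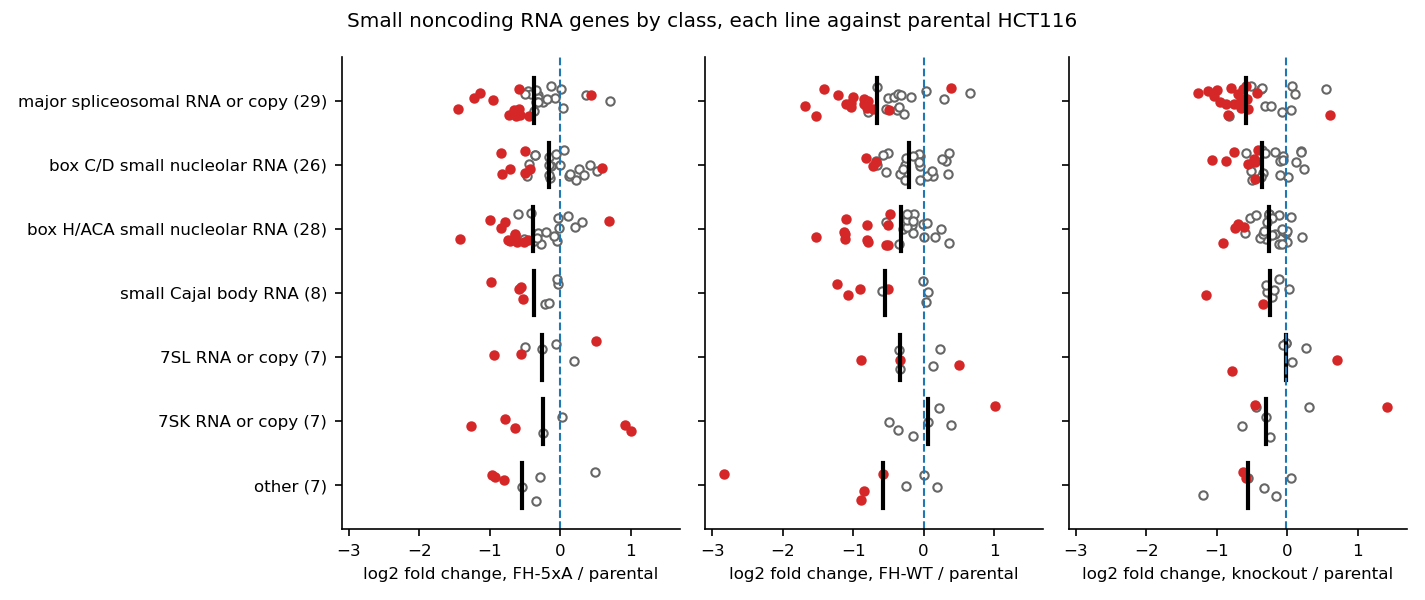
Log2 fold change of each member (point) by class, for FH-5xA, FH-WT and knockout cells, each against parental cells; filled points passed a false discovery rate of 0.05, black bars are class medians and the dashed line is the median over all genes. The spliceosomal RNAs sat furthest left of the dashed line in the knockout panel, at a median of -0.59, and RNY1 is the isolated point at -2.83 in the FH-WT panel, in the row of other RNAs.

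The 29 major spliceosomal genes and copies had a median of -0.59 in knockout against parental cells in the authors' deposited table. Of them 17 were lower (58.6%) and 1 higher (3.45%), where 21.2% and 23.2% of all genes were called lower and higher. All 7 genes of U5, the spliceosomal RNA that holds the exons together during splicing, were below 0 and 6 of them were called, at a median of -0.84 in the authors' deposited table. They are 1 family counted in the same libraries, so their common sign is not 7 separate results. RNU5B-1 had a fitted level of 1.82 CPM in knockout cells and 3.96 CPM in parental cells, and its log2 fold change was -1.12 ± 0.27 (FDR 0.00016) in the authors' deposited table. RNU5D-1 had 1.43 and 2.77 CPM in knockout and parental cells, with -0.96 ± 0.20 (FDR 7.7e-06) in the authors' deposited table. RNU5F-1, at 3.05 and 5.48 CPM in knockout and parental cells, stood at -0.84 ± 0.16 in the authors' deposited table. The U5 variant that did not pass, RNU5E-4P, had a value of -0.82 ± 0.42 in the authors' deposited table.

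U4 and 8 U1 genes fell too, and no U6 gene was called lower. U1 RNA recognises the 5′ splice site, and the RNVU1 genes encode variants of it. Of 14 U1 family genes 8 were lower (57.1%) and none higher in knockout cells in the authors' deposited table, with a family median of -0.54. Of all genes 21.2% were called lower and 23.2% higher. The largest falls were RNVU1-25 at -1.26 ± 0.20 (1.14 CPM in knockout and 2.72 CPM in parental cells) and RNVU1-15 at -1.03 ± 0.17 (3.47 and 7.11 CPM in knockout and parental cells) in the authors' deposited table. RNVU1-31, at 13.2 CPM in knockout and 19.5 CPM in parental cells, stood at -0.56 ± 0.17 in the authors' deposited table. RNVU1-29 and the pseudogene copy RNU1-16P were the U1 genes above 0, at 0.11 ± 0.17 and 0.55 ± 0.32, neither called in the authors' deposited table. Both U4 genes were lower in the authors' deposited table: RNU4-1 at -0.70 ± 0.25 and RNU4-2 at -0.63 ± 0.25. RNU6-2 and RNU6-8, genes of U6, the RNA at the catalytic centre, stood at -0.07 ± 0.21 and 0.06 ± 0.27 in the authors' deposited table, and the copy RNU6-26P was higher at 0.61 ± 0.14; the U6 family as a whole, with 5 genes, had a median of 0.05. U6 genes have many near-identical copies (RNU6-26P has 19), which limits what their counts show. The same limit holds for RNVU1-25, which has such a copy, and for RNU4-1 and RNU4-2, which share 97.2% of their bases. Of the 18 members with a near-identical copy 10 were lower (55.6%) and 2 higher. Of the 94 without one 25 were lower (26.6%, not far from the 21.2% of all genes) and 1 higher. The contrast between members with and without a copy was not tested. RNU4ATAC of the minor spliceosome was at -0.32 ± 0.20, not called in the authors' deposited table.

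**Figure D2:**
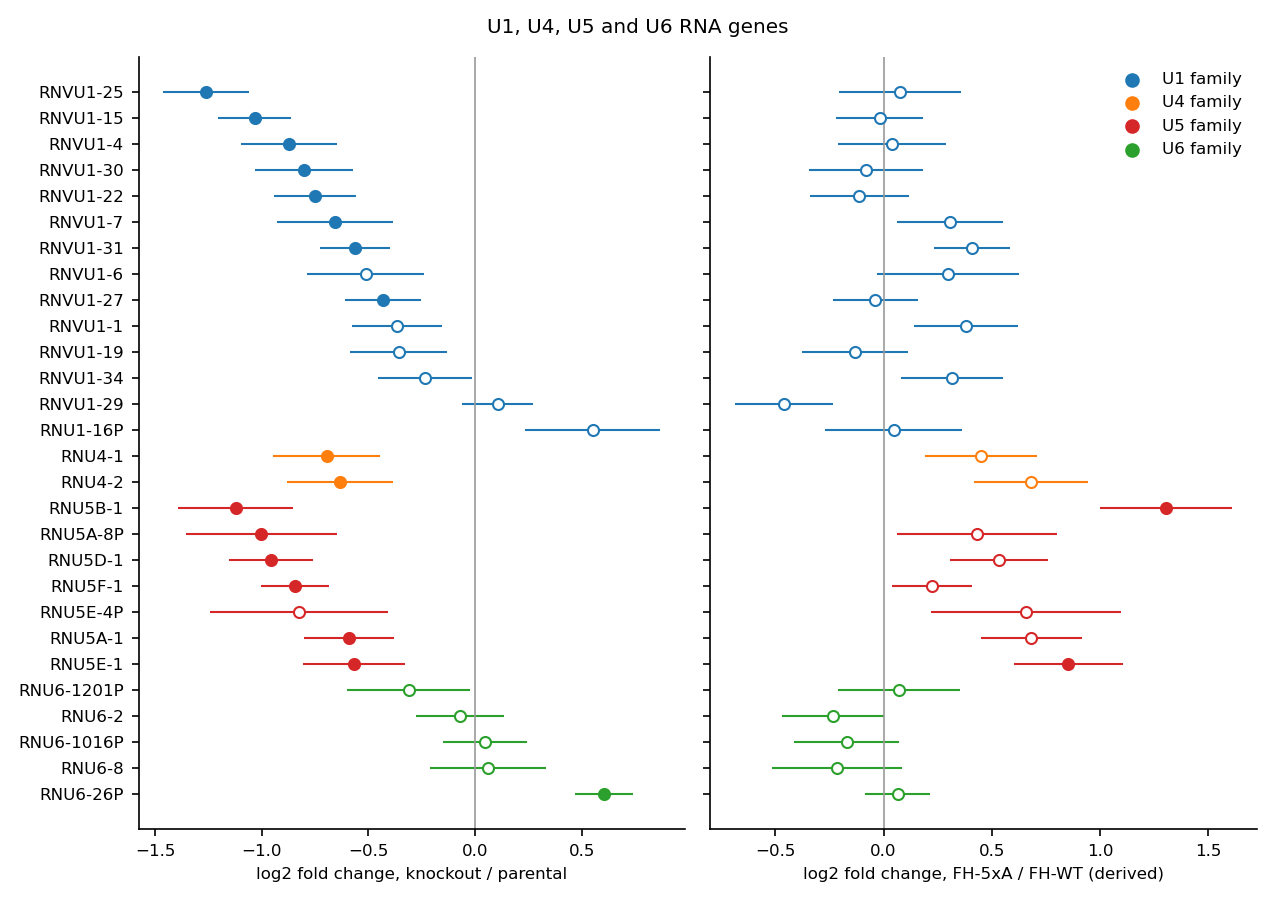
Log2 fold change with its standard error for each U1, U4, U5 and U6 gene, in knockout against parental cells (left) and FH-5xA against FH-WT (right); filled points passed a false discovery rate of 0.05. All 7 U5 genes lie below 0 on the left and above 0 on the right, where RNU5B-1 and RNU5E-1 passed.

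Among the small nucleolar RNAs, 8 of 26 box C/D members were lower in knockout cells (30.8%, against 21.2% of all genes) and none higher, at a median of -0.36 in the authors' deposited table. SNORD104 had 10.2 CPM in knockout cells and 18.6 CPM in parental cells and a log2 fold change of -0.86 ± 0.24 in the authors' deposited table. SNORD11B stood at -0.76 ± 0.31 (1.02 CPM in knockout and 1.72 CPM in parental cells) in the authors' deposited table. SNORD15B stood at -0.42 ± 0.11, and SNORD13 at -0.55 ± 0.20, in the authors' deposited table; SNORD13 (U13) helps to place an acetyl group on 18S rRNA. SNORD3C, one of the gene copies of U3, the RNA that starts 18S rRNA processing, was at -1.07 ± 0.40 (FDR 0.02) in the authors' deposited table, while SNORD3A, another U3 gene, was at -0.50 ± 0.27 and not called. Of the 28 H/ACA members 4 were lower (14.3%, below the 21.2% of all genes) and none higher, at a median of -0.26 in the authors' deposited table. They were SNORA12 at -0.74 ± 0.18, SNORA71A at -0.70 ± 0.19, SNORA75 at -0.61 ± 0.20 and a copy of the SNORA70 family on chromosome 12 (ENSG00000251893) at -0.91 ± 0.22 in the authors' deposited table. Of 8 small Cajal body RNAs 2 were lower (25%, near the 21.2% of all genes). These were SCARNA22, with 2.14 CPM in knockout and 4.75 CPM in parental cells, at -1.15 ± 0.17 (FDR 2.3e-10), and SCARNA13 at -0.34 ± 0.14 in the authors' deposited table.

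The 3 members that were higher in the knockout were a 7SL gene, a 7SK copy and the U6 copy named above. RN7SL3, a 7SL gene, had 2517 CPM in knockout and 1545 CPM in parental cells and stood at 0.70 ± 0.11 (FDR 1.1e-09) in the authors' deposited table. Its near-identical neighbour RN7SL2 had 3577 and 3397 CPM in knockout and parental cells, and its 0.07 ± 0.18 in the authors' deposited table missed the threshold. RN7SKP97, a 7SK copy inside ASPH, had only 1.42 CPM in knockout and 0.534 CPM in parental cells. Its log2 fold change was 1.42 ± 0.27 in the authors' deposited table, where ASPH itself was higher at 0.74 ± 0.09. The third was RNU6-26P, and its host DCBLD2 was at 0.21 ± 0.09, called in the authors' deposited table. RNY1 had a fitted level of 3.86 CPM in knockout and 8.81 CPM in parental cells, a value of -1.19 ± 0.53 that missed the threshold (FDR 0.057) in the authors' deposited table. RNY1 lies in the right part of chromosome 7, beyond 70 Mb, where the median over 454 genes was 0.49 in knockout against parental cells in the authors' deposited table.

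Members that lie outside other genes had a lower median than members inside genes. Of the 36 members outside any gene on their strand 18 were lower (50%) and 1 higher in knockout cells, at a median of -0.56 in the authors' deposited table. Of the 76 inside a gene on the same strand 17 were lower (22.4%) and 2 higher (2.63%), at a median of -0.26 in the authors' deposited table. Of all genes 21.2% were called lower and 23.2% higher, so the lower share inside genes was near that of all genes. The contrast of these medians was not tested, and placement was not separated from RNA class. Host genes were measured for 73 members, and across those the member and host fold changes had a Pearson r of 0.41 in the authors' deposited table, as a description over genes that share libraries and, for 20 members on 9 hosts, the host itself. Of the 16 hosted members that were lower, 11 had a host that was lower and 1 a host that was higher in the authors' deposited table; over all 73 members the host was lower for 35 and higher for 6. SNORD104 moved like its host SNHG25, at -0.91 ± 0.28, and SNORA12 like its host CWF19L1, at -0.52 ± 0.08, in the authors' deposited table. SCARNA22 lay well below its host NSD2, which stood at -0.23 ± 0.07 in the authors' deposited table. A U3 copy inside TEX14 was at -0.58 ± 0.13 although TEX14 was higher at 0.68 ± 0.17 in the authors' deposited table. Reads from an intron of the host can be counted with a small RNA inside it, and their share was not tested.

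**Figure D3:**
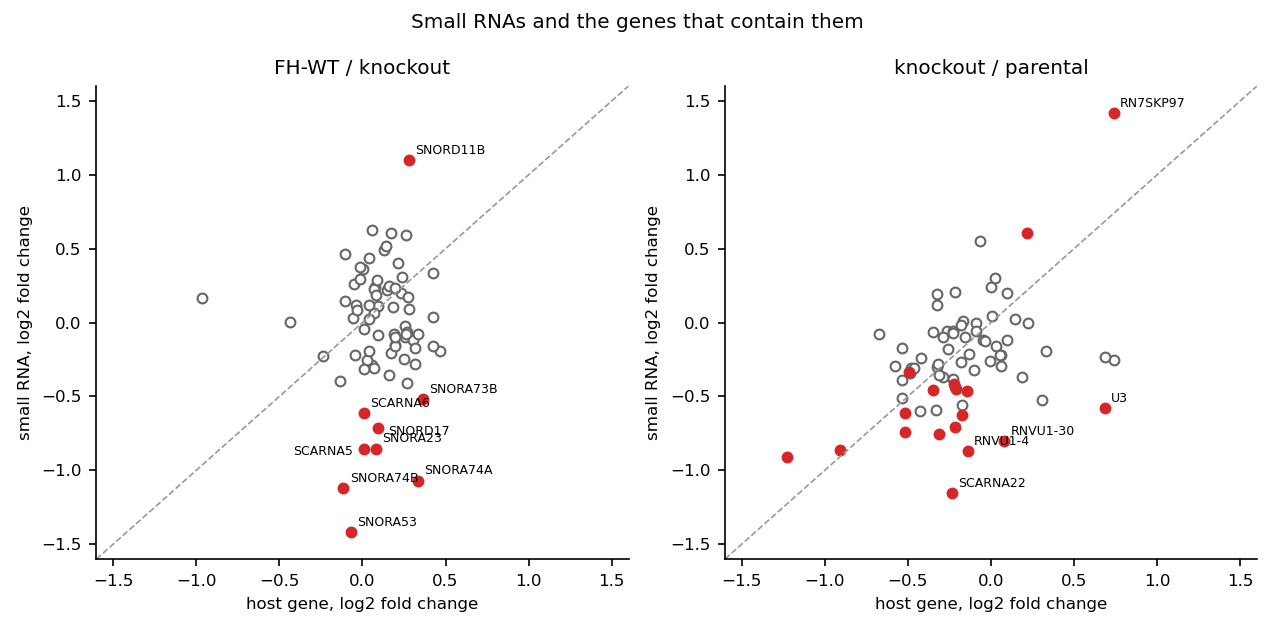
Log2 fold change of each small RNA (vertical) against that of the gene that contains it on the same strand (horizontal), for FH-WT against knockout (left) and knockout against parental cells (right), over 73 members; filled points are small RNAs that passed a false discovery rate of 0.05 and the dashed line marks equal change. On the left the filled points run down a narrow band of host values near 0 with SNORA53 at the bottom, while on the right many filled points lie near the dashed line.

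Several groups of protein partners had more genes lower than higher in the knockout, where 21.2% of all genes were called lower and 23.2% higher. Of 19 measured proteins of small nucleolar ribonucleoproteins and their assembly 12 were lower and none higher, at a median of -0.25 in the authors' deposited table. They included fibrillarin (FBL) at -0.49 ± 0.07, NOP56, a core box C/D protein, at -0.37 ± 0.07 and dyskerin (DKC1) at -0.36 ± 0.09 in the authors' deposited table. Of 26 Sm, LSm and core spliceosomal proteins 14 were lower and 1 higher at a median of -0.34, among them the U6-binding LSM4 at -0.76 ± 0.10 and LSM3 at -0.48 ± 0.09 in the authors' deposited table. LSM5, on chromosome 7, stood at -1.36 ± 0.12 in the authors' deposited table. Of 18 trimming and nuclear decay factors 8 were lower and none higher in the authors' deposited table, with the exosome subunits EXOSC8 at -0.60 ± 0.09, EXOSC3 at -0.47 ± 0.10 and EXOSC2 at -0.31 ± 0.06. Of 10 minor spliceosome proteins 3 were lower, not far from the share of all genes (SNRNP25, PDCD7 and SNRNP48, between -0.39 and -0.28) and none higher in the authors' deposited table.

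Genes for the synthesis of these RNAs, and for proteins that bind Y, 7SK and 7SL RNA, were called at shares not far from or below those of all genes (21.2% lower and 23.2% higher). Of 35 genes for snRNA transcription, 3′ processing and the SMN complex 10 were lower and 3 higher in the authors' deposited table. SNAPC3, a subunit of the snRNA promoter factor, was higher at 0.56 ± 0.07, the Integrator subunit INTS6 was higher at 0.44 ± 0.07 and TOE1, which trims snRNA tails, was lower at -0.53 ± 0.09 in the authors' deposited table. Of 21 RNA polymerase III genes 5 were lower and 4 higher in the authors' deposited table; the TFIIIC subunit GTF3C5 stood at -0.51 ± 0.08, the 5S rRNA factor GTF3A at -0.35 ± 0.07 and the polymerase subunit POLR3E at -0.25 ± 0.08. Of 16 proteins that bind Y, 7SK or 7SL RNA 2 were lower and 1 higher in the authors' deposited table. RO60, the protein partner of Y RNAs, was higher at 0.32 ± 0.09, the 7SL-binding SRP9 was lower at -0.50 ± 0.10 and the P-TEFb cyclin CCNT1 was lower at -0.24 ± 0.07 in the authors' deposited table.

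FH-WT cells had less of a small group of long small nucleolar RNAs than knockout cells, and more of SNORD11B. In FH-WT against knockout 11 members were lower (9.82%) and 1 higher (0.893%) in the authors' deposited table, where 5.85% and 4.21% of all genes were called lower and higher, and the members' median was -0.07. SNORA53 had a fitted level of 13.6 CPM in FH-WT and 36.2 CPM in knockout cells, and stood at -1.42 ± 0.17 (FDR 4.9e-14) in the authors' deposited table. Its host SLC25A3, the mitochondrial phosphate carrier, was at -0.07 ± 0.09 and not called in the authors' deposited table. The annotated SNORA53 overlaps an exon of a SLC25A3 transcript, so host reads may be assigned to either gene. SNORD17 had 69.8 CPM in FH-WT and 115 CPM in knockout cells and stood at -0.72 ± 0.10 (FDR 1.5e-10), with its host SNX5 at 0.09 ± 0.07, in the authors' deposited table.

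The other falls were mostly of H/ACA and Cajal body RNAs. SNORA74A and SNORA74B, both of the U19 family, stood at -1.07 ± 0.23 and -1.12 ± 0.36 in FH-WT against knockout in the authors' deposited table. SNORA74B was low, at a mean of -0.11 log2 CPM, against 3.33 for SNORA74A. The host of SNORA74A, SNHG4, was higher at 0.33 ± 0.10, and that of SNORA74B, ATP6V0E1, was at -0.11 ± 0.10 in the authors' deposited table. SNORA23 was at -0.85 ± 0.18 and SNORA73B, one of the U17 genes needed for 18S rRNA processing, at -0.52 ± 0.13 (121 CPM in FH-WT and 174 CPM in knockout cells) in the authors' deposited table. SNORA73B fell while its host RCC1 was higher at 0.36 ± 0.07 in the authors' deposited table. SCARNA5 and SCARNA6, from introns of the single host ATG16L1, were at -0.86 ± 0.19 and -0.61 ± 0.19 with the host at 0.01 ± 0.07 in the authors' deposited table. RNVU1-29 at -0.60 ± 0.20, RNU4-2 at -0.77 ± 0.26 and RNY1 at -1.63 ± 0.56 (FDR 0.041) completed the falls in the authors' deposited table. Of the 8 hosted members that fell, none had a host that was lower and 2 had a host that was higher in the authors' deposited table, and the Pearson r between member and host over 73 members was 0.03.

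The 8 small nucleolar and Cajal body RNAs that fell were all long. Of the 16 small nucleolar and Cajal body RNAs of 180 bases or more 8 were lower in FH-WT against knockout, at a median of -0.41, against 0 of the 49 shorter ones, at a median of 0.06, in the authors' deposited table. Of all genes 5.85% were called lower. The split at 180 bases was chosen after the values were seen and carries no test. Over 63 of these RNAs, without the longer gene models SNORD3C and SNORD3B-2, the Spearman correlation of length with the fold change was -0.39 in FH-5xA and -0.48 in FH-WT, each against knockout, and 0.12 in knockout against parental cells. Mean expression had a Spearman correlation over the same RNAs of -0.33 with the FH-5xA fold change and -0.23 with the FH-WT fold change, each against knockout, and of -0.17 with that of knockout against parental cells, and the parts of length, depth and RNA preparation were not tested. The long RNAs that did not fall included SNORD3A at -0.03 ± 0.27 (245 CPM in FH-WT and 251 CPM in knockout cells) and SCARNA7 at 0.23 ± 0.19 in the authors' deposited table.

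**Figure D4:**
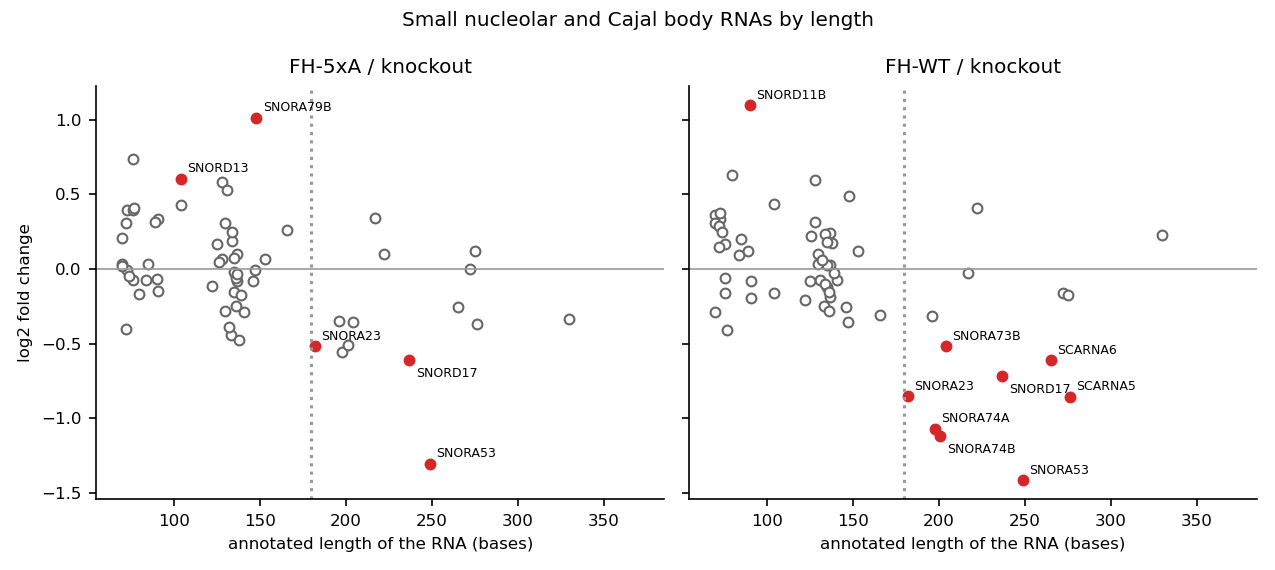
Log2 fold change against annotated length in bases for 63 small nucleolar and Cajal body RNAs, in FH-5xA (left) and FH-WT (right), each against knockout cells; filled and named points passed a false discovery rate of 0.05 and the dotted line is at 180 bases. In the right panel the 8 called falls all lie right of the dotted line, from -0.52 for SNORA73B to -1.42 for SNORA53.

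The single rise in FH-WT was SNORD11B. Its fitted level was 2.18 CPM in FH-WT and 1.02 CPM in knockout cells, at 1.10 ± 0.33 (FDR 0.014) in the authors' deposited table. SNORD11, in another intron of the same host, had 2.26 and 2.12 CPM in FH-WT and knockout cells, at 0.09 ± 0.21. The host NOP58, itself a core protein of box C/D particles, was higher at 0.28 ± 0.10 in the authors' deposited table. Of the partner lists, 3 of 19 small nucleolar particle proteins, 5 of 26 Sm, LSm and core proteins, 3 of 35 snRNA synthesis genes, 2 of 21 RNA polymerase III genes, 1 of 16 Y, 7SK and 7SL proteins, 2 of 18 trimming factors and 0 of 10 minor spliceosome proteins were higher, and none lower, in the authors' deposited table, where 4.21% of all genes were called higher and 5.85% lower. Counts of 1 to 3 genes in lists of this size are few to set against those shares. EXOSC8 at 0.43 ± 0.09, LSM3 at 0.40 ± 0.09 and DKC1 at 0.31 ± 0.09 were among them in the authors' deposited table.

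FH-5xA cells also had less SNORA53 than knockout cells. In FH-5xA against knockout 6 members were lower (5.36%) and 5 higher (4.46%) in the authors' deposited table, against 6.24% and 5.04% of all genes, shares near the background. SNORA53 had 14.7 CPM in FH-5xA and 36.2 CPM in knockout cells, at -1.30 ± 0.16 (FDR 1.4e-12), and its host SLC25A3 was at 0.20 ± 0.09, not called, in the authors' deposited table. SNORD17 was lower at -0.61 ± 0.10 and SNORA23 at -0.52 ± 0.16 in the authors' deposited table. The other falls were RNVU1-29 at -1.06 ± 0.20, the 7SL copy RN7SL4P at -0.92 ± 0.21 (21.3 CPM in FH-5xA and 40.2 CPM in knockout cells) and RN7SL2 at -0.62 ± 0.18 (2322 and 3577 CPM in FH-5xA and knockout cells) in the authors' deposited table.

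The rises with FH-5xA were SNORD3C at 1.50 ± 0.40, SNORA79B at 1.01 ± 0.28, an Rfam-named Y RNA copy in FNBP4 at 0.65 ± 0.23, RNU5D-1 at 0.64 ± 0.21 and SNORD13 at 0.61 ± 0.20 in the authors' deposited table. SNORD3C has a near-identical copy, which limits what its counts show. Of the 94 members without such a copy 3 were higher and 4 lower. SNORA79B had 11.2 CPM in FH-5xA and 5.54 CPM in knockout cells, and its host CCNB1IP1 was at 0.12 ± 0.08 and not called in the authors' deposited table. The Y RNA copy overlaps an exon of FNBP4, which was at 0.14 ± 0.11 in the authors' deposited table. All 7 U5 genes were above 0 in FH-5xA against knockout, at a median of 0.64 with 1 called, in the authors' deposited table. As 1 family counted in the same libraries, they do not give 7 separate results. Few partner genes changed: the 7 lists, with 10 to 35 measured genes each, held 4 higher and 2 lower in the authors' deposited table. Both shares lay below the 5.04% and 6.24% of all genes called higher and lower. RO60 was lower at -0.28 ± 0.09.

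The design also allows the mutant to be set against the wild-type protein, but none of the tables analysed here compares these lines directly. The difference was therefore derived from the deposited fold changes of each line against the knockout, with its error solved from the errors of all 5 tables. By this measure 4 members were higher (3.57%) and 2 lower (1.79%) in FH-5xA than in FH-WT, against 1.98% and 2.13% of 15072 genes, and the members' median was 0.06. With the plain sum of both squared standard errors, which ignores that the comparisons share the knockout libraries, none of the 112 members was called at an FDR under 0.05 and 15 had an unadjusted p under 0.05, against 27 in the solved form.

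RNY1 differed most. Its fitted level was 6.95 CPM in FH-5xA and 1.24 CPM in FH-WT, with 3.86 CPM in the knockout and 8.81 CPM in parental cells, and the derived difference was 2.48 ± 0.57 (adjusted p 0.0024). FH-WT had the lowest level of the 4 lines and FH-5xA stood near parental cells, at -0.34 ± 0.53 against them in the authors' deposited table. The standard error of RNY1 was more than the members' median of 0.24, and its closest annotated copy shares 94.7% of its bases. Over 454 genes of the right part of chromosome 7 the median derived difference was 0.01. Of its partners, RO60 differed by -0.06 ± 0.09 between FH-5xA and FH-WT, and SSB, the La protein, by -0.28 ± 0.12, and neither was called.

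RNU5B-1 and RNU5E-1, both U5 genes, also differed between the add-back lines. RNU5B-1 had 3.06 CPM in FH-5xA and 1.24 CPM in FH-WT, with 1.82 CPM in the knockout and 3.96 CPM in parental cells, and the derived difference was 1.31 ± 0.31 (adjusted p 0.0032). RNU5E-1 had 11.99 CPM in FH-5xA and 6.63 CPM in FH-WT, with 9.58 CPM in the knockout and 14.2 CPM in parental cells, a difference of 0.85 ± 0.25 (adjusted p 0.026). The neighbour of RNU5B-1, RNU5A-1, differed by 0.68 ± 0.23 (adjusted p 0.067) and was not called. In FH-WT against knockout 4 of the 7 U5 genes were above 0, at a median of 0.04 with none called, in the authors' deposited table. In the derived difference all 7 U5 genes were above 0, at a median of 0.66, with 2 called. They belong to 1 family and were counted in the same libraries, so their common sign is not 7 separate results and was not tested. Both U4 genes were above 0 at 0.45 ± 0.26 for RNU4-1 and 0.68 ± 0.26 for RNU4-2, not called. The 14 U1 family genes had a median derived difference of 0.04 and none was called. RNU5E-1 overlaps an exon of a long noncoding gene on its strand, and none of the other 6 U5 genes does.

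RNU4ATAC went the other way. Its fitted level was 0.916 CPM in FH-5xA and 2.03 CPM in FH-WT, with 1.43 CPM in the knockout and 1.79 CPM in parental cells, and the derived difference was -1.15 ± 0.24 (adjusted p 0.00077). Against parental cells it was lower in FH-5xA at -0.97 ± 0.23, and in FH-WT it was at 0.18 ± 0.21 and not called, in the authors' deposited tables. RNU4ATAC lies opposite CLASP1, on the other strand, and the sources used here do not state whether counting used strand. It also lies inside an annotated gene on its own strand that was not among the measured genes, and the share of that gene's reads was not tested. None of the 10 measured minor spliceosome proteins was called in the derived comparison, and their median was -0.16.

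SNORD13 and SNORD11B made up the rest. SNORD13 had 8.23 CPM in FH-5xA and 4.83 CPM in FH-WT, with 5.41 CPM in the knockout and 7.94 CPM in parental cells, a difference of 0.77 ± 0.21 (adjusted p 0.017). SNORD11B had 0.974 CPM in FH-5xA and 2.18 CPM in FH-WT, with 1.02 CPM in the knockout and 1.72 CPM in parental cells, a difference of -1.16 ± 0.33 (adjusted p 0.023). NOP58, its host, also differed, by -0.31 ± 0.10 (adjusted p 0.037), and SNORD11 differed by -0.17 ± 0.21 and was not called. Of the protein partners, 2 of 19 small nucleolar particle proteins, 4 of 26 Sm, LSm and core proteins and 2 of 18 trimming factors were lower in FH-5xA than in FH-WT. None was higher, and the other 4 lists held no call. Of all genes 2.13% were called lower and 1.98% higher, and counts of 2 to 4 genes are few to set against those shares. These calls rest on the solved error: with the plain sum of both squared standard errors only 13 of all genes were called. NOP10, a core H/ACA protein, was lower at -0.32 ± 0.10, as were LSM3 at -0.40 ± 0.09 and EXOSC8 at -0.32 ± 0.09. SNORA53 differed by 0.11 ± 0.18 between the add-back lines and SNORD17 by 0.10 ± 0.10, neither called. Both comparisons against the knockout share its 3 libraries, so their values for these RNAs are given side by side only.

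**Figure D5:**
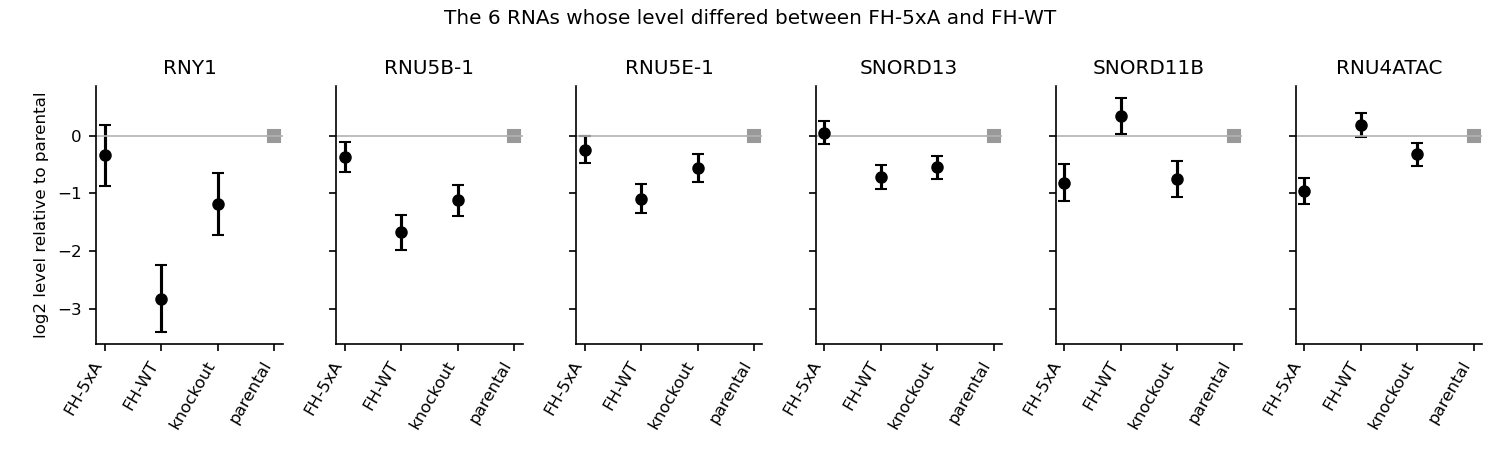
Log2 level of 6 RNAs in FH-5xA, FH-WT, knockout and parental cells relative to parental cells (square at 0); bars are standard errors of the fold change against parental cells. RNY1, RNU5B-1, RNU5E-1 and SNORD13 are lowest in FH-WT, at -2.83, -1.68, -1.10 and -0.72, whereas SNORD11B and RNU4ATAC are highest there among the engineered lines.

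Against parental cells, too, both add-back lines had more members lower than higher. In FH-5xA 40 members were lower (35.7%) and 6 higher (5.36%) in the authors' deposited table, against 20.9% and 22.9% of all genes, with a median of -0.34. In FH-WT 39 were lower (34.8%) and 3 higher (2.68%) in the authors' deposited table, against 16.1% and 18.3% of all genes, with a median of -0.35. The U5 family had a median of -0.31 with 1 of 7 lower in FH-5xA, and of -0.84 with 5 of 7 lower in FH-WT, in the authors' deposited tables. Both U4 genes were lower in FH-5xA and in FH-WT, where RNU4-2 stood at -0.73 ± 0.25 and -1.41 ± 0.26 in the authors' deposited tables. Of the 14 U1 genes 6 were lower in FH-5xA and 6 in FH-WT in the authors' deposited tables, led in both by RNVU1-25 at -1.45 ± 0.21 and -1.53 ± 0.23.

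Many H/ACA RNAs were lower in the add-back lines. Of 28 members 11 were lower (39.3%) and 1 higher (3.57%) in FH-5xA against parental cells in the authors' deposited table. In FH-WT against parental cells 12 were lower (42.9%) and 0 higher in the authors' deposited table. Of all genes 20.9% were called lower and 22.9% higher in FH-5xA, and 16.1% and 18.3% in FH-WT. SNORA53 had 14.7 CPM in FH-5xA, 13.6 CPM in FH-WT and 39.2 CPM in parental cells, at -1.42 ± 0.17 and -1.53 ± 0.17 in the authors' deposited tables. SNORA12 was at -0.75 ± 0.18 in FH-5xA and -1.10 ± 0.19 in FH-WT, and SNORA73B at -0.64 ± 0.13 and -0.81 ± 0.13, in the authors' deposited tables. The rises against parental cells were RN7SL3 at 0.51 ± 0.11 and 0.51 ± 0.11, RN7SKP97 at 1.01 ± 0.30 and 1.02 ± 0.32 and RNU6-26P at 0.45 ± 0.14 and 0.38 ± 0.15 in FH-5xA and FH-WT in the authors' deposited tables. SNORA79B at 0.69 ± 0.28, the 7SK copy RN7SKP9 at 0.93 ± 0.28 and a SNORD39 family gene inside MIR31HG (ENSG00000264379) at 0.59 ± 0.16 were higher in FH-5xA in the authors' deposited table. Of the 7SK copies, RN7SKP255 at -0.78 ± 0.26, RN7SKP203 at -0.64 ± 0.17 and RN7SKP227 at -1.26 ± 0.35 were lower in FH-5xA in the authors' deposited table.

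SCARNA21 had 42.5 CPM in FH-5xA, 47.1 CPM in FH-WT, 47.9 CPM in the knockout and 47.2 CPM in parental cells, and was not called in any of the 6 comparisons. SCARNA7 had 162 CPM in FH-5xA, 239 CPM in FH-WT, 204 CPM in the knockout and 233 CPM in parental cells, and was lower in FH-5xA against parental cells at -0.53 ± 0.19 in the authors' deposited table. The vault RNA VTRNA1-3, of the large vault particle, had 2.72 CPM in FH-5xA, 2.23 CPM in FH-WT, 3.46 CPM in the knockout and 3.33 CPM in parental cells, and was lower in FH-WT against parental cells at -0.58 ± 0.23 in the authors' deposited table.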

How the data were processed

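RNA of 12 HCT116 libraries (4 lines, 3 libraries each) was extracted with DNase treatment, depleted of ribosomal RNA and sequenced from stranded libraries, per the labels' protocols. The submitters' processing notes name edgeR 3.8.6, featureCounts 1.4.6, Cufflinks 2.2.1 and TopHat2 2.0.12, and the GRCh38 build. The sources used here do not state the gene annotation, strand setting, filter on low counts or normalization factors, and the depth per library is unknown, so the precision of each value rests on the deposited errors. Per the file headers, the deposited tables hold the authors' log2 fold change, mean log2 CPM, likelihood ratio score, p-value and false discovery rate (a Benjamini-Hochberg adjusted p-value) for 5 comparisons over 15074 genes. Values per library were not analysed here. Replicates are wells of one line, so p-values measure the spread between wells.

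From these, the standard error was computed as the absolute log2 fold change over the square root of the score. FH-5xA against FH-WT was the difference of both fold changes against knockout; its variance came from a least-squares solution of the 5 squared errors for 1 variance per group, tested by chi-square with 1 degree of freedom and adjusted over 15072 genes. As a check, 4 tables were used in the same way to predict the fifth (FH-WT against knockout): 1511 genes and 11 members were called, of which 1507 and 11 were also called in the deposited table, which called 1516 and 12. The deposited fold changes add up across comparisons (largest gap 4.6e-14 log2), so this check bears on the errors only. Classes, hosts, sequences and coordinates come from GENCODE 29, near-identical copies from blastn 2.17.0. The steps were tested on simulated data. Genes named are the marker genes of the class, members with a mean of at least 32 CPM, the 4 largest called changes per direction and comparison, the non-pseudogene spliceosomal and polymerase III RNAs, up to 3 called genes per partner list with the smallest p-value, and hosts; a few others were chosen after their values were seen. Members and lists were chosen with earlier results of these data known. Some sequences are not reported here.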

Additional observations from a re-analysis of the deposited data

Results flagged for a closer look

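For 6 RNAs the change against the knockout differed between FH-5xA and FH-WT by a test of the difference itself, adjusted over all genes. The difference (FH-5xA minus FH-WT, log2) was 2.48 for RNY1, 1.31 for RNU5B-1, 0.85 for RNU5E-1, 0.77 for SNORD13, -1.15 for RNU4ATAC and -1.16 for SNORD11B. Each of these calls is lost with the plain sum of both squared standard errors, and no test compared single libraries of both lines.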

How the results depend on the processing

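No paired analysis was possible because the deposited tables hold no values per library. For the same reason, leaving out each library and another normalization of counts were not run. Of the alternatives that were run, only subtracting the median of all genes altered fold changes. That median was small (-0.01 in knockout against parental cells), so the alternatives do not test the direction of a named result. At a false discovery rate under 0.01 the number of called members was 22 in knockout against parental cells (38 at 0.05), 6 in FH-WT against knockout (12), 7 in FH-5xA against knockout (11) and 3 in FH-5xA against FH-WT (6). Among genes with a mean of at least 4 CPM it was 15 in knockout against parental, 7 in FH-5xA against knockout, 20 in FH-WT against parental (42), 24 in FH-5xA against parental (46) and 3 in FH-5xA against FH-WT; this filter removes 77 of the 112 members, so fewer can be called. Without members that have a near-identical copy, 7 were called in FH-5xA against knockout. With the sum of both squared standard errors, 0 members and 13 genes were called in FH-5xA against FH-WT. Among named members, 31 calls were lost at 0.01 and 6 with summed errors, and subtracting the median of all genes added 1, RN7SKP227 in FH-5xA against knockout. Including the chromosome 7 members, or leaving out members overlapping an exon on the same strand, changes only which members are counted. These settings could therefore not change a named call and are no test of one. Low counts limit the result: the median standard error over members was 0.21 in knockout against parental cells, against 0.12 over all genes.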
